A study of Mus musculus with 10 samples.

Results

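Heat shock proteins and their co-chaperones keep other proteins folded, and 10 of their genes were followed through the peritoneum of mice given peritoneal dialysis (PD) fluid or phosphate-buffered saline (PBS). The 10 genes were taken by name from a count table of 21877 gene symbols: Hspa1a, Hspa1b, Hspa8, Hsph1, Dnajb1, Bag3, Hsp90aa1, Hspb1, Hspb8 and Cryab. All 10 passed the filter on low counts, among 15385 genes tested. The groups were male C57BL/6 mice of the genotypes Mr1-/- and Mr1+/+, and each mouse was injected into the peritoneal cavity for 6 weeks with 4.25% PD fluid or with as much PBS. PD fluid is the glucose-rich solution that draws water and waste out of the blood in dialysis, and Mr1 encodes the molecule that presents microbial metabolites to mucosal-associated invariant T cells. The labels give neither the age of the mice nor the number of animals behind a library, and no batch.

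Small heat shock proteins such as Hspb1, Hspb8 and Cryab bind unfolding proteins without using ATP and hold them until an HSP70 chaperone can act. HSP70 proteins cycle between grip and release, driven by J-domain partners such as Dnajb1 and by exchange factors such as Hsph1 and Bag3, and HSP90 proteins take over partly folded clients such as kinases and steroid receptors. Heat shock factors switch on the inducible members of all these families when unfolded protein builds up, by binding inverted repeats of the letters GAA in their promoters. In muscle these chaperones are known for protecting contractile proteins, and in cultured human mesothelial cells PD fluid is known to induce HSP70.

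The samples were 2 libraries of Mr1-/- PD fluid, 2 of Mr1-/- PBS, 3 of Mr1+/+ PD fluid and 3 of Mr1+/+ PBS, with 14145635 to 16335799 counts each. Replicates 1 and 2 of Mr1-/- PD fluid, and replicates 1 and 2 of Mr1+/+ PBS, were nearly alike, with a chi-square per gene of 1.74 and 2.23, while the other 6 pairs within a group had 18.6 to 118. Each of these 2 pairs was summed to 1 sample, so the groups hold 1, 2, 3 and 2 samples in that order. Mr1 averaged 2.25 ± 0.255 CPM (counts scaled to library size; SD, n = 3) in Mr1-/- samples and 27.7 ± 4.66 CPM (n = 5) in Mr1+/+ samples, a log2 difference of -3.55 (exact two-sided permutation p = 0.0179, the smallest that 56 splits allow). The tissue was mixed. Mean log2 CPM over 8 mesothelial markers, the lining cells of the peritoneum, lay between 2.56 and 5.21, over 15 adipocyte markers between 7.94 and 9.83, and over 11 pancreatic acinar markers between 3.34 and 10.7. Replicate 3 of Mr1+/+ PBS stood apart: 9 intestinal epithelial markers had a mean log2 CPM of 7.13 there and at most -0.44 in the other 7 samples. In bulk tissue, fewer cells of a type and less RNA per cell cannot be told apart.

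The 3 small heat shock proteins rose with PD fluid in Mr1+/+ mice, and so did Bag3. Under PD fluid they stood higher by 3.66-fold (Cryab), 3.26-fold (Hspb1), 2.33-fold (Hspb8) and 1.60-fold (Bag3). All 3 small heat shock proteins were higher in each Mr1+/+ PD fluid sample than in any of the other 5 samples, Mr1-/- PD fluid included. The HSP70 genes Hspa1a and Hspa1b differed by similar folds. Their spread between samples was too wide to pass in edgeR, while DESeq2 called both.

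Cryab encodes alpha B-crystallin, a small heat shock protein best known from the lens, heart and muscle (chromosome 9, 50751325 to 50756636, plus strand; mm10, GENCODE M21 for this and the coordinates that follow). It measured 49.4, 76.7 and 84.1 CPM in the Mr1+/+ PD fluid samples of replicates 1, 2 and 3, against 19.3 CPM in the summed Mr1+/+ PBS replicates 1 and 2 and 19.0 CPM in replicate 3. Its Mr1-/- levels were 32.4 CPM under PD fluid and 24.3 and 33.0 CPM under PBS. The lowest Mr1+/+ PD fluid sample thus lay above every other sample. The log2 fold change of PD fluid against PBS in Mr1+/+ mice was 1.87 with an SE of 0.26 (edgeR adjusted p = 0.0124), on group means of 70.1 ± 18.3 CPM (SD, n = 3) and 19.2 ± 0.182 CPM (n = 2). Exons of Cryab overlap those of Hspb2 on the opposite strand, which had 6 counts or fewer in each library.

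Hspb1 encodes the small heat shock protein that caps and steadies actin filaments (chromosome 5, 135887919 to 135889563, plus strand). It reached 67.1, 101 and 127 CPM in Mr1+/+ PD fluid replicates 1, 2 and 3, against 32.0 and 28.2 CPM in the Mr1+/+ PBS samples. In Mr1-/- mice it measured 43.1 CPM under PD fluid and 37.4 and 51.8 CPM under PBS. The Mr1+/+ PD fluid samples were again the 3 highest, and they differed among themselves more than the PBS samples did. The log2 fold change in Mr1+/+ mice was 1.70 with an SE of 0.29 (edgeR adjusted p = 0.0150; means 98.3 ± 30.1 and 30.1 ± 2.68 CPM).

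Hspb8 forms a complex with Bag3 that hands damaged filament proteins to autophagy (chromosome 5, 116408491 to 116422864, minus strand). It was the steadiest of the 3 under PD fluid, at 73.5, 69.2 and 76.4 CPM in the Mr1+/+ samples, against 33.7 and 29.1 CPM in Mr1+/+ PBS. Mr1-/- samples had 45.6 CPM under PD fluid and 41.4 and 60.1 CPM under PBS, between those 2 groups. The log2 fold change in Mr1+/+ mice was 1.22 with an SE of 0.19 (edgeR adjusted p = 0.0124; means 73.0 ± 3.64 and 31.4 ± 3.26 CPM).

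Bag3, the exchange factor and scaffold that links HSP70 to the small heat shock proteins (chromosome 7, 128523616 to 128546981, plus strand), had 74.5, 91.4 and 93.9 CPM in Mr1+/+ PD fluid samples, against 53.0 and 55.2 CPM in Mr1+/+ PBS. Its Mr1-/- levels were 60.7 CPM under PD fluid and 51.2 and 74.6 CPM under PBS. Replicate 2 of Mr1-/- PBS thus reached the lowest Mr1+/+ PD fluid sample. Bag3 rose by 0.68 on the log2 scale with an SE of 0.19 (edgeR adjusted p = 0.0490), close to the threshold.

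**Figure D1:**
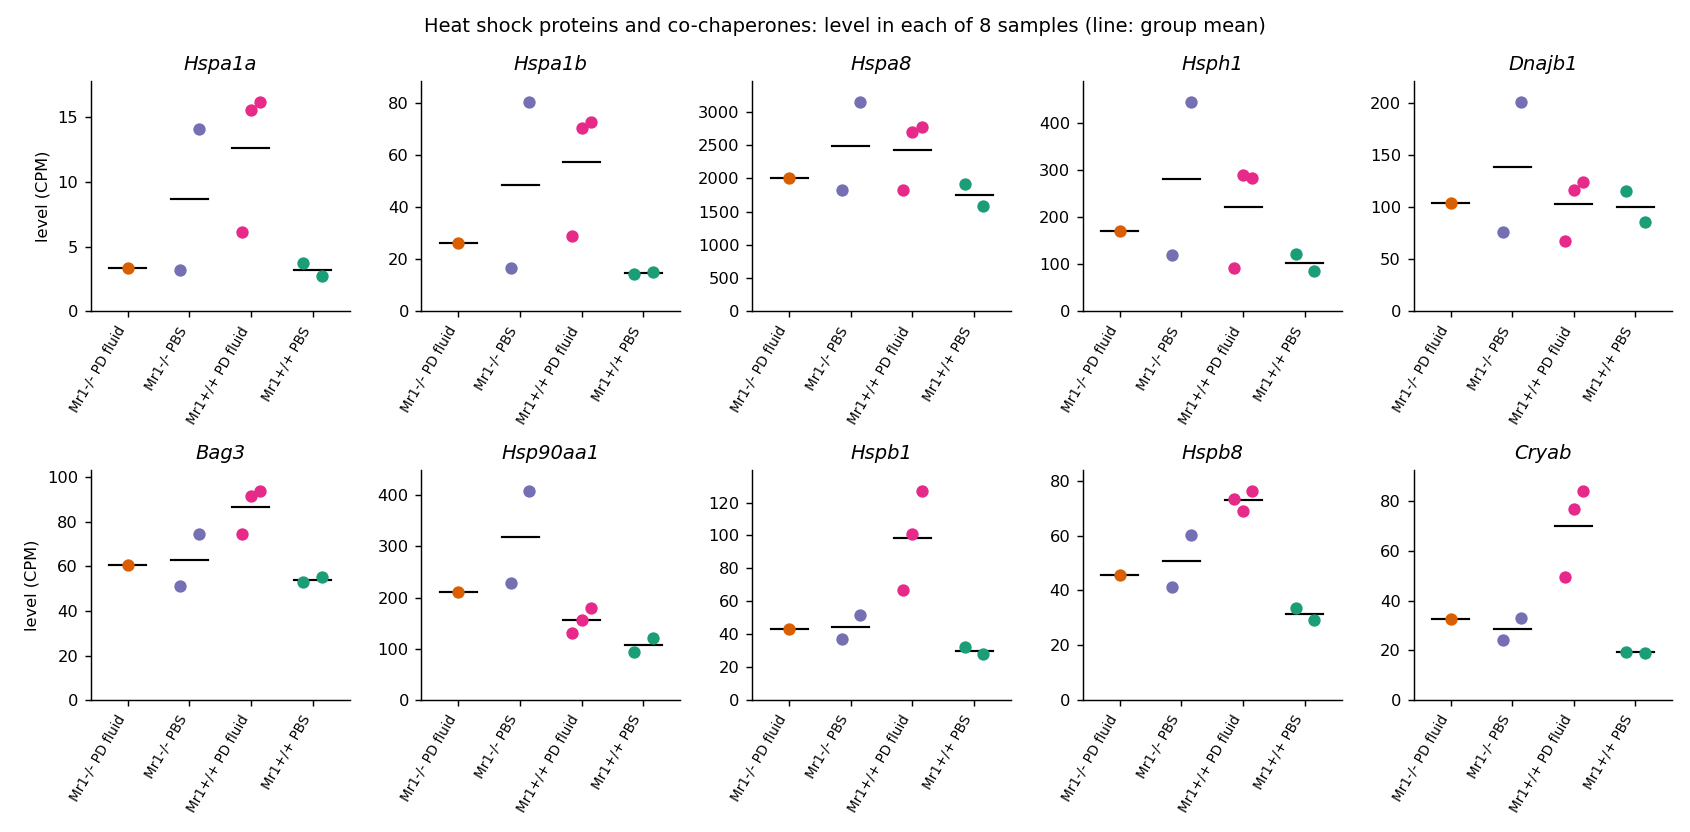
Level in CPM (linear axis from 0) of each of the 10 genes in each of 8 samples; points are samples, lines are group means, and columns run Mr1-/- PD fluid, Mr1-/- PBS, Mr1+/+ PD fluid, Mr1+/+ PBS. Hspb1, Hspb8 and Cryab have their 3 highest samples in Mr1+/+ PD fluid, whereas Hspa1a, Hspa1b, Hsph1 and Dnajb1 split the samples within groups.

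The inducible HSP70 genes Hspa1a and Hspa1b lie side by side on the minus strand of chromosome 17 (34969190 to 34972156 and 34956436 to 34959238). Their coding sequences, 1926 and 1929 bases long, are 99.4% identical, so how reads were split between them is uncertain, and their sum is given too. Hspa1a measured 6.14, 15.6 and 16.2 CPM in Mr1+/+ PD fluid replicates 1, 2 and 3, against 3.75 and 2.74 CPM in Mr1+/+ PBS. Hspa1b measured 29.1, 70.5 and 72.7 CPM, against 14.4 and 15.3 CPM. Every Mr1+/+ PD fluid sample lay above both PBS samples, but replicate 1 was much nearer to them than replicates 2 and 3.

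The log2 fold changes in Mr1+/+ mice were 1.95 for Hspa1a (SE 0.72, edgeR adjusted p = 0.111), 1.95 for Hspa1b (SE 0.79, adjusted p = 0.155) and 1.95 for the sum (SE 0.79, adjusted p = 0.157). None of these passed in edgeR, although the folds equal or exceed those of the small heat shock proteins. DESeq2 called Hspa1a (adjusted p = 0.00864) and Hspa1b (adjusted p = 0.0494), as it did 25% of tested genes. Fitted on only the groups compared, edgeR called both as well (adjusted p = 0.0278 and 0.0357), against 2505 of 14385 tested genes. With 10 separate libraries it called both too (adjusted p = 0.0232 and 0.0304), against 37.5% of tested genes. That setting counts the nearly alike pairs as separate samples. With the skeletal muscle covariate edgeR called neither (adjusted p = 0.346 and 0.444), against 566 of 15385 tested genes. Neither was called with the adipocyte covariate, against 67 of 15385 tested genes. The sum had 35.2, 86.1 and 88.9 CPM in Mr1+/+ PD fluid samples, against 18.1 and 18.0 CPM in Mr1+/+ PBS. In Mr1-/- mice it had 29.5 CPM under PD fluid, against 20.1 and 94.7 CPM under PBS, and the 94.7 CPM of replicate 2 was the highest of all 8 samples. Hspa1a made up 11.4% of the sum in the Mr1-/- PD fluid sample and 14.9% to 20.7% in the others. Exons of Hspa1a overlap Gm20481 on the opposite strand, which had 0 counts in every library.

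Hsph1, the HSP110 protein that frees ADP from HSP70 (chromosome 5, 149614287 to 149636376, minus strand), spread in the same way. It had 91.4, 290 and 284 CPM in Mr1+/+ PD fluid samples, against 122 and 85.4 CPM in Mr1+/+ PBS. Mr1-/- samples had 172 CPM under PD fluid, against 119 and 445 CPM under PBS. Replicate 1 of Mr1+/+ PD fluid fell between the PBS samples, so the groups overlapped, and the log2 fold change of 1.1 had an SE of 0.77 (edgeR adjusted p = 0.370).

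Dnajb1, the J-domain partner that stirs HSP70 to hydrolyse ATP (chromosome 8, 83608193 to 83612653, plus strand), had 68.1, 117 and 125 CPM in Mr1+/+ PD fluid samples, against 116 and 85.5 CPM in Mr1+/+ PBS. Both its lowest and its higher samples came from PD fluid, and its log2 fold change was 0.04 with an SE of 0.46 (edgeR adjusted p = 0.964). In Mr1-/- mice it had 104 CPM under PD fluid, against 76.1 and 201 CPM under PBS.

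Hspa8, the HSP70 that every cell makes without stress (chromosome 9, 40800984 to 40810087, plus strand), had 1823, 2692 and 2771 CPM in Mr1+/+ PD fluid samples, against 1918 and 1581 CPM in Mr1+/+ PBS. The groups overlapped, and the log2 fold change was 0.47 with an SE of 0.28 (edgeR adjusted p = 0.267). Mr1-/- samples had 2003 CPM under PD fluid, against 1820.1 and 3148 CPM under PBS.

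Hsp90aa1, the stress-inducible HSP90 (chromosome 12, 110690605 to 110702728, minus strand), had 131, 156 and 181 CPM in Mr1+/+ PD fluid samples, against 93.6 and 122 CPM in Mr1+/+ PBS. The groups did not overlap, but the log2 fold change of 0.53 had an SE of 0.27 (edgeR adjusted p = 0.198). Its highest values were in Mr1-/- mice, at 210.3 CPM under PD fluid, against 229 and 409 CPM under PBS.

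In all, 4 of 10 genes were called higher with PD fluid in Mr1+/+ mice and none lower, where 8.49% of all tested genes were called higher. All 10 fold changes were positive, with a median of 1.16 on the log2 scale against -0.06 over all tested genes. In 7 of 10 the samples did not overlap and PD fluid was higher (Hspa1a, Hspa1b, Hspb1, Hspb8, Cryab, Bag3 and Hsp90aa1), as in 25% of all tested genes. The 3 genes with all Mr1+/+ PD fluid samples above the other 5 compare with 16.5% of tested genes. No member was called without Mr1+/+ PD fluid replicate 3, where edgeR called no gene of the whole table. The edgeR adjusted p of the 4 genes called before ran from 0.0576 to 0.149 there. An unadjusted p under 0.05 was found for 4 members, against 3601 of 15356 tested genes. Leaving out Mr1+/+ PD fluid replicate 2 left calls for Hspb8 and Cryab only, against 339 of 15374 tested genes (adjusted p of 0.0540 for Hspb1 and 0.118 for Bag3). Bag3 alone lost its call without Mr1+/+ PBS replicate 2 (edgeR adjusted p = 0.0503), against 2202 of 15393 tested genes called. Replicate 1, nearly alike, stayed in that fit, so no sample was removed. Bag3 also lost its call without Mr1+/+ PBS replicate 3 (log2 fold change 0.71). Hspa1a and Hspa1b gained a call without either Mr1-/- PBS replicate. Omitting Mr1+/+ PBS replicate 3 or either Mr1-/- PBS replicate left 1 sample in that group.

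Markers of other cells moved with the same contrast. Of 15 adipocyte markers 13 rose, of 9 fibroblast markers 8, of 9 endothelial markers 5 and of 10 macrophage markers 6, and of 5 tested erythroid markers 3 (median log2 fold change 2.44), while 10 of 10 B cell markers and 3 of 9 tested T cell markers fell. Mean log2 CPM of the adipocyte markers was 9.51 to 9.83 in Mr1+/+ PD fluid samples, 8.32 to 8.79 in Mr1-/- samples and 7.94 to 8.31 in Mr1+/+ PBS samples. With that level as a covariate edgeR called no member, against 67 of 15385 tested genes. An unadjusted p under 0.05 was found for 1 member, against 949 of these genes. The log2 fold change was then 1.66 for Hspb1 (SE 1.1), 2.28 for Hspb8 (SE 0.60), 1.73 for Cryab (SE 0.96) and 1.09 for Bag3 (SE 0.72). Their edgeR adjusted p was 0.981, 0.339, 0.927 and 0.975. Skeletal muscle, which is rich in Hspb1, Hspb8, Cryab and Bag3, was at a low level: 10 of 16 markers passed the filter, with mean log2 CPM of 1.04 to 1.60 in Mr1+/+ PD fluid samples and 1.45 to 2.01 in Mr1+/+ PBS samples. Their log2 fold changes in this contrast ran from -4.04 to 2.15, with a median of -0.59, and 3 of 10 were positive. Myl1 alone was called, and it rose (2.15, SE 0.26, edgeR adjusted p = 0.0124), where 8.49% of all tested genes were called higher. In their highest library the 16 markers reached 0 (Myh4) to 526 counts (Ttn), with 313 for Acta1, 274 for Ckm and 189 for Myl1, while Pvalb, Tnnc2 and Mb had 1, 2 and 4, so some muscle RNA was present. With the skeletal muscle level as a covariate, Hspb8 (1.41) and Cryab (1.68) were still called, against 566 of 15385 tested genes. Hspb1 (1.54, edgeR adjusted p = 0.0790) and Bag3 (0.67, adjusted p = 0.174) were not.

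**Figure D2:**
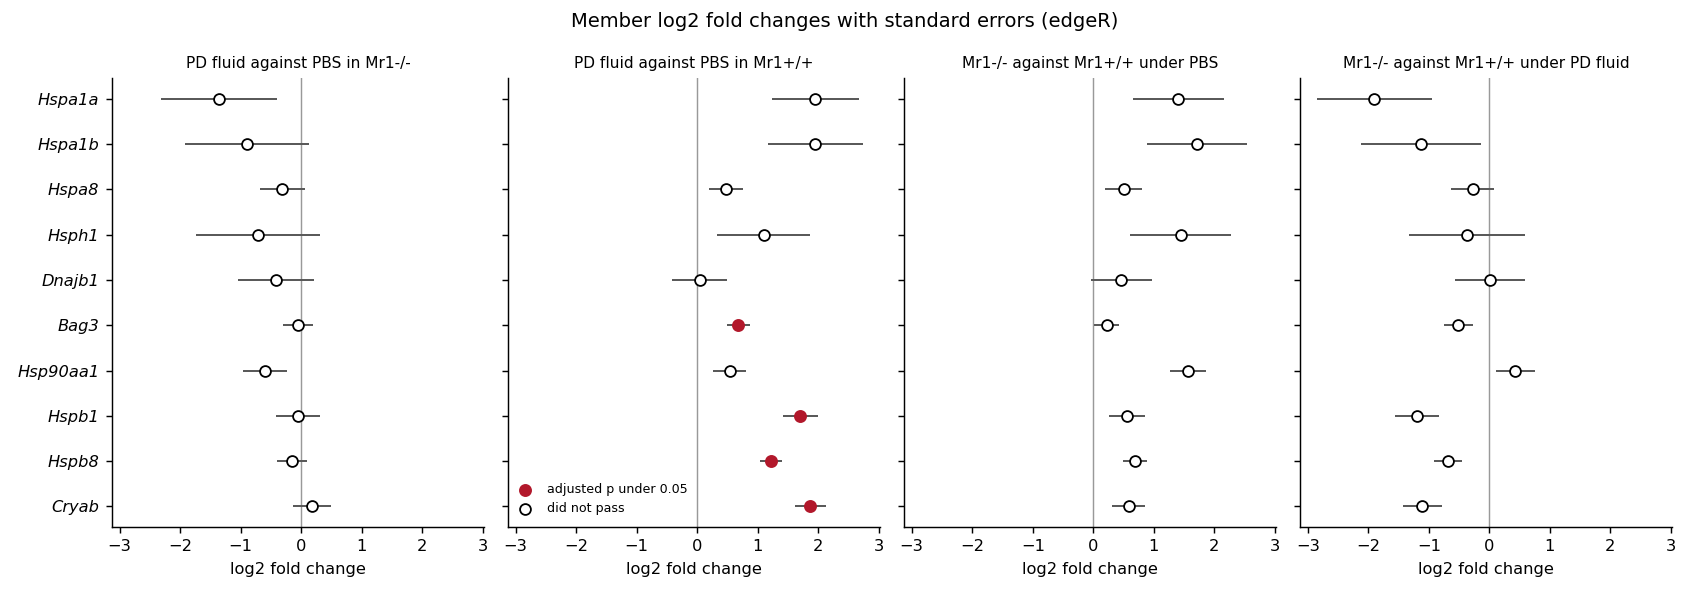
Log2 fold change of each gene in 4 comparisons; bars are SE from edgeR, filled points have an adjusted p under 0.05 over 15385 genes, and open points do not. Filled points appear only for Bag3, Hspb1, Hspb8 and Cryab in PD fluid against PBS of Mr1+/+ mice.

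In Mr1-/- mice PD fluid against PBS called 0 of 10 members and 0% of tested genes, with a single PD fluid sample. At an unadjusted p under 0.05 edgeR also gave 0 members and 1.5% of tested genes. DESeq2 called 0 members and 0.0715% of tested genes, but it gave no adjusted p for Hspa1a, which could thus not be called. Of the 10 fold changes only that of Cryab was positive (0.18, SE 0.32), and the median was -0.36 on the log2 scale against -0.01 over all tested genes. The values ran down to -1.36 for Hspa1a (SE 0.95), -0.90 for Hspa1b (SE 1.02) and -0.71 for Hsph1 (SE 1.03). They rest on replicate 2 of Mr1-/- PBS: without it 9 of 10 were positive, with a median of 0.23, and Hspa1b stood at 0.63, Hsph1 at 0.53 and Dnajb1 at 0.45. With all samples in, every member but Hspa1a and Hsp90aa1 (-0.60, SE 0.36) lay within 1 SE of 0. Among these were Hspb1 (-0.05, SE 0.36), Bag3 (-0.05, SE 0.25) and Hspb8 (-0.15, SE 0.24).

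Among the members, Hspa1a, Hspa1b and Hsph1 differed most between samples of the same group. Replicate 2 of Mr1-/- PBS exceeded replicate 1 by 4.78-fold in Hspa1b, 4.42-fold in Hspa1a, 3.74-fold in Hsph1 and 2.64-fold in Dnajb1, and these were the 4 of 10 members that differed at least 2-fold upward, against 6.2% of tested genes. All 10 members were higher in replicate 2. Hsp90aa1 was so by 1.79-fold and Hspa8 by 1.73-fold, and the small heat shock proteins and Bag3 by 1.36-fold (Cryab) to 1.46-fold (Bag3). The ratio of Cryab, the smallest of these, lay above that of 86.0% of tested genes. In Mr1+/+ PD fluid, replicate 2 exceeded replicate 1 by 3.17-fold in Hsph1, 2.54-fold in Hspa1a and 2.42-fold in Hspa1b (3 of 10 members, against 4.22% of tested genes). Replicate 3 exceeded replicate 1 by 3.10-fold, 2.64-fold and 2.50-fold in the same genes (3 of 10, against 4.2%). Among the others Hspb1 was 1.90-fold and Dnajb1 1.83-fold higher in replicate 3 than in replicate 1, and Hspb8 was level across those samples, at 0.941-fold and 1.04-fold. Between the 2 Mr1+/+ PBS samples, and between replicates 2 and 3 of Mr1+/+ PD fluid, no member differed 2-fold.

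These samples differed in their tissue as well. Mean log2 CPM of 8 smooth muscle markers was 7.60 in Mr1-/- PBS replicate 2, against 5.46 to 6.38 in the other 7 samples, and that of the mesothelial markers was lowest there, at 2.56. Acinar markers stood at 7.71 and 7.95 in Mr1+/+ PD fluid replicates 2 and 3, against 3.34 in replicate 1. Their part in the spread of Hspa1a, Hspa1b, Hsph1 and Dnajb1 was not tested. The mean log2 CPM of the immediate early genes was lowest in the samples highest in Hspa1a and Hspa1b: 5.27 in Mr1-/- PBS replicate 2, 5.27 and 5.33 in Mr1+/+ PD fluid replicates 2 and 3, against 5.37 to 5.82 in the other 5 samples, and its part was not tested either.

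**Figure D3:**
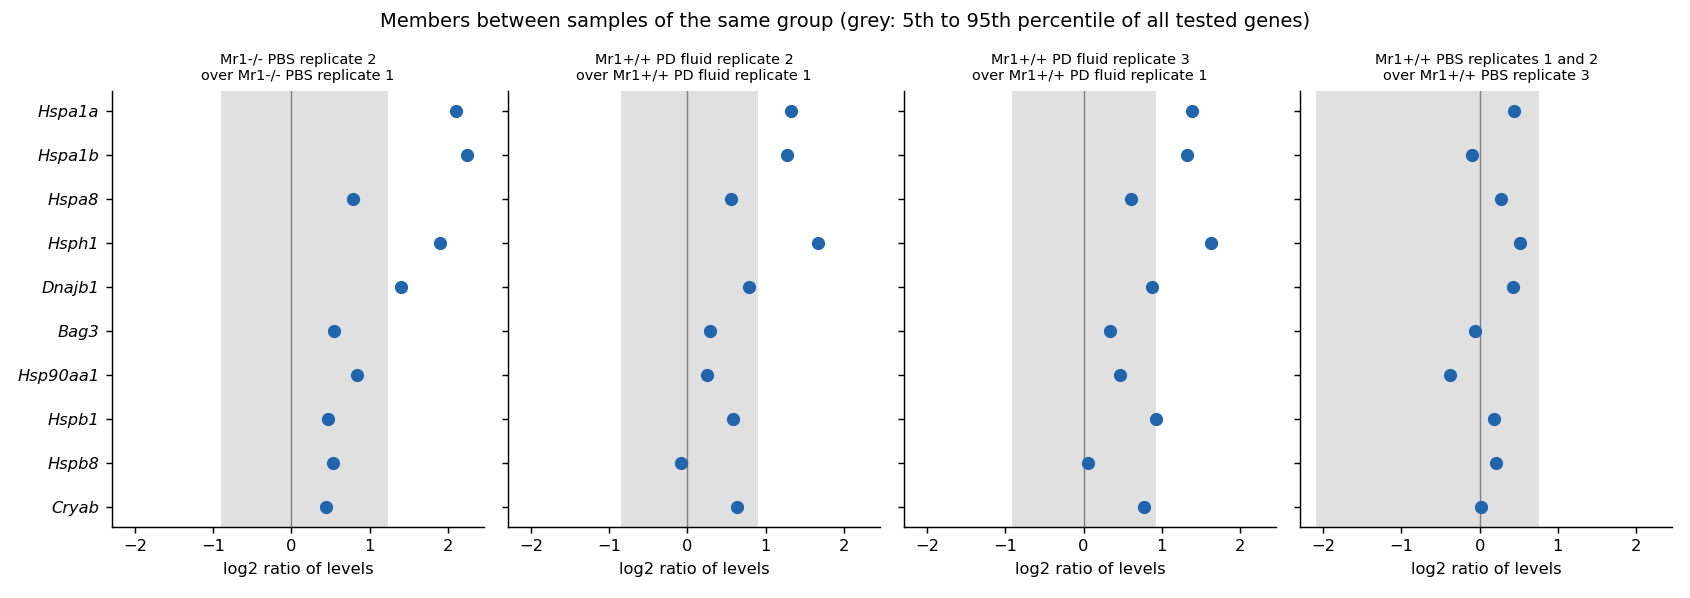
Log2 ratio of each gene's level between samples of 1 group; points are the 10 genes and the grey band runs from the 5th to the 95th percentile of all 15385 tested genes. Hspa1a, Hspa1b and Hsph1 lie right of the band in the first 3 panels. Dnajb1 does so in the panel of Mr1-/- PBS, and Hspb1 just so in that of Mr1+/+ PD fluid replicate 3 over replicate 1. No gene lies outside the band in the panel of Mr1+/+ PBS.

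Promoters are shown for Hspa1a and Hsph1, which split the samples, and for Hspb1, Hspb8 and Bag3, which rose, because heat shock factors read paired GAA units there. Each run is RefSeq sequence of GRCm38.p6 from 250 bases before to 50 bases after the gene's start, 5′ to 3′ on the gene's strand. Capitals mark GAANNTTC or TTCNNGAA, 2 inverted units of a heat shock element; each pattern is its own reverse complement, so 1 search covers both strands, and overlapping matches were kept. Hspa1a lies at chr17:34972107-34972406 on the minus strand, Hsph1 at chr5:149636287-149636586 on the minus strand, Hspb1 at chr5:135887669-135887968 on the plus strand, Hspb8 at chr5:116422815-116423114 on the minus strand and Bag3 at chr7:128523333-128523632 on the plus strand.
Hspa1a: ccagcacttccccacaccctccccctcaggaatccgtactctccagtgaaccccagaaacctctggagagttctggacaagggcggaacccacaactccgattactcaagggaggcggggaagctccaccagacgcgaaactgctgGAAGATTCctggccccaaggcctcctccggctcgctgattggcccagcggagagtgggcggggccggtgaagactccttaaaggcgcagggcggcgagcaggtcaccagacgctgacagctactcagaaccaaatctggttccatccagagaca
Hsph1: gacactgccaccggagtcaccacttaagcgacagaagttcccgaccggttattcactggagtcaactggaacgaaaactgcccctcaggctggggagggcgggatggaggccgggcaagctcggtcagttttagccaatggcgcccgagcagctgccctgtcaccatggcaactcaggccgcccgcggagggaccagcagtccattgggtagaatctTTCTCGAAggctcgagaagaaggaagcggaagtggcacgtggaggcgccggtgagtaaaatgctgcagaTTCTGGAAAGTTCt
Hspb1: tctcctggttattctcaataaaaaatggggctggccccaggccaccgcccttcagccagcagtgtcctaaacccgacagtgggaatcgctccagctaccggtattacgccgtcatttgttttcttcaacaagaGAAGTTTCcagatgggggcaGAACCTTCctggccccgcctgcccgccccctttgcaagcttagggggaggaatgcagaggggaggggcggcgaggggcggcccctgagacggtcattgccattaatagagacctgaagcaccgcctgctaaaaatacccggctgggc
Hspb8: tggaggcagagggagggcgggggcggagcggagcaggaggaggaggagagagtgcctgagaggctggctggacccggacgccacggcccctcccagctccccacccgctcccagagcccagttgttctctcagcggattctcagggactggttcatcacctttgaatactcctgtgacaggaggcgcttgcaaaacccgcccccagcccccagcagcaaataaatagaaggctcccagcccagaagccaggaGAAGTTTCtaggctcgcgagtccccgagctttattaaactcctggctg
Bag3: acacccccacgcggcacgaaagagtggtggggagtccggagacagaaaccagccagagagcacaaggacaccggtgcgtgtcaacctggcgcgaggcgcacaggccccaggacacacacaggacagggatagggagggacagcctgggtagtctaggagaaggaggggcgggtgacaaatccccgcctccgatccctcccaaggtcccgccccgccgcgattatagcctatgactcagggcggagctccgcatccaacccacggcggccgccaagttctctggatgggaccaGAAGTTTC

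Of the 10 members 7 had a promoter in the table, and 6 of those 7 held the pattern of 2 units, against 16.97% of 27025 genes with a promoter there. Dnajb1 held none in either of its 2 listed promoters. Positions count the first base of the RefSeq gene as 0. That base is also the GENCODE start of Hspa1a, Hspa1b, Hspb1 and Hspb8, but it lies 40 bases inside the GENCODE gene for Hsph1 and 33 bases before it for Bag3. In this count, the match GAAGATTC began at -104 in both Hspa1a and Hspa1b, whose promoters differ at 4 of 300 bases. Hspb1 held GAAGTTTC at -117 and GAACCTTC at -97. Hspb8 and Bag3 held GAAGTTTC at 2 and 42, past the start. Hsph1 held TTCTCGAA at -33 and, overlapping one another, TTCTGGAA at 36 and GAAAGTTC at 41, which together make the longer pattern of 3 alternating units that 0.662% of the genes hold. From the GENCODE start the first match of Hsph1 begins at 7, inside the gene, and that of Bag3 at 9. These letters describe the sequence, and no binding was measured. Genes with the pattern differed by unequal folds between Mr1+/+ PD fluid replicates 1 and 2. Replicate 2 exceeded replicate 1 by 3.17-fold in Hsph1, 2.54-fold in Hspa1a and 2.42-fold in Hspa1b. Hspb1 and Bag3 were higher there by less, and Hspb8 was level (0.941-fold). Dnajb1, which held no match, was higher in replicate 2 as well. Whether the pattern bears on these levels was not tested.

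Levels across genes can be compared per kilobase of exon. Hspa8 was highest, with a median over 8 samples of 456 CPM per kb. Hspb1 (46.0), Hsp90aa1 (42.8), Dnajb1 (34.2), Hspb8 (27.1), Bag3 (26.4), Cryab (22.1) and Hsph1 (20.2) followed, all in CPM per kb, and their ranges over samples overlapped: that of Hspb1 ran from 27.4 to 123 and that of Hsph1 from 11.7 to 61.2. Hspa1b (9.85) and Hspa1a (1.67) were lowest, and the range of Hspa1a, 0.923 to 5.46 CPM per kb, touched no other gene's but that of Hspa1b (5.12 to 28.7). The same pair varied most, with a highest sample 5.92-fold (Hspa1a) and 5.61-fold (Hspa1b) above the lowest, and Bag3 varied least, at 1.83-fold. Counts behind these values were 39 to 250 per library for Hspa1a and 22525 to 46527 for Hspa8.

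Between the genotypes, members stood higher in Mr1-/- than in Mr1+/+ mice under PBS and mostly lower under PD fluid, and none of these differences passed the test. Under PBS 0 of 10 members were called, as were 0.013% of tested genes. At an unadjusted p under 0.05 there were 2 members (Hsp90aa1 and Hspb8), against 8.64% of tested genes, and DESeq2 called 1 (Hsp90aa1), against 1.37%. All 10 fold changes of Mr1-/- against Mr1+/+ were positive, with a median of 0.64 on the log2 scale against -0.02 over all tested genes. The samples of Hspa1b, Hspb1, Hspb8, Cryab and Hsp90aa1 did not overlap, 5 of 10 members against 20.5% of tested genes. Without Mr1-/- PBS replicate 2 the median was 0.19, and 7 of 10 were positive.

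Under PD fluid 0 of 10 members were called, as were 0.013% of tested genes. The unadjusted p was under 0.05 for 3 members (Cryab, Hspb1 and Hspb8), against 19.1% of tested genes, and DESeq2 called 2 (Hspb1 and Cryab), against 6.73%. The log2 fold changes of Mr1-/- against Mr1+/+ were -1.19 for Hspb1 (SE 0.36, edgeR adjusted p = 0.171), -1.11 for Cryab (SE 0.32, adjusted p = 0.160) and -0.68 for Hspb8 (SE 0.24, adjusted p = 0.192). The single Mr1-/- sample lay below all 3 Mr1+/+ samples in 6 of 10 members (Hspa1a, Hspa1b, Hspb1, Hspb8, Cryab and Bag3), against 33.9% of tested genes.

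The response to PD fluid itself was not shown to differ between genotypes. The interaction called 0 of 10 members and 0% of tested genes. All 10 interaction terms were negative, that is, lower in Mr1-/- mice, with a median of -1.53 against 0.01 over all tested genes. They were -1.69 for Cryab (SE 0.42, edgeR adjusted p = 0.272), -1.75 for Hspb1 (SE 0.47, adjusted p = 0.272), -1.37 for Hspb8 (SE 0.31, adjusted p = 0.266) and -3.31 for Hspa1a (SE 1.21, adjusted p = 0.340). At an unadjusted p under 0.05 there were 6 members (these 4, Bag3 and Hsp90aa1), against 13.2% of tested genes, and DESeq2 called 3 (Hspb1, Hspb8 and Cryab), against 3.17%. Without Mr1-/- PBS replicate 2 the interaction median was -0.86, 1 term (Dnajb1) was positive, and Hspa1a stood at -1.87. Without Mr1+/+ PD fluid replicate 2, 3 members had an unadjusted p under 0.05 in edgeR, against 1687 of 15374 tested genes. Without replicate 3 there were also 3, against 1321 of 15356. The comparisons share samples, so the signs of their values are not independent of one another.

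Hsp90aa1 was the 1 member ordered by genotype. Its 3 Mr1-/- samples, at 210.3, 229 and 409 CPM, lay above all 5 Mr1+/+ samples, which ran from 93.6 to 181 CPM with a median of 131 CPM. No other member separated the genotypes in this way, upward or downward. Of all tested genes 6.9% did so upward and 3.78% downward, and 1 of 10 members is near these shares. The log2 fold change was 1.56 under PBS (SE 0.30, edgeR adjusted p = 0.506, unadjusted p = 0.00076) and 0.43 under PD fluid (SE 0.33, adjusted p = 0.513). Averaged over both treatments it was 0.998 (SE 0.22, adjusted p = 0.203), a comparison added after these levels were seen. In that average 0 of 10 members and 0.0585% of tested genes were called; the unadjusted p was under 0.05 for Hsp90aa1 alone, against 15.3% of tested genes, and DESeq2 called Hsp90aa1 alone, against 3.39%. DESeq2 gave Hsp90aa1 an adjusted p of 3.83e-05 under PBS and 0.00193 in the average. Liver markers followed the same split: the mean log2 CPM of 10 of them was 3.13 to 3.76 in Mr1-/- samples and -1.16 to 1.70 in Mr1+/+ samples, and their part in the level of Hsp90aa1 was not tested. Without Mr1-/- PBS replicate 2 the average was 0.76 (edgeR adjusted p = 0.195).

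Among the members, Hsph1 followed Hspa1a plus Hspa1b most closely across the 8 samples. Likeness was the root mean square difference of log2 CPM after each gene was centred on its own mean, over 11529 genes with a mean of at least 5 CPM. Hsph1 had 0.46 and rank 6, Hspb1 0.55 and rank 25, Cryab 0.57 and rank 34, Hspb8 0.63 and rank 91, Hspa8 0.69 and rank 192, Bag3 0.70 and rank 251, Dnajb1 0.77 and rank 635, and Hsp90aa1 0.84 and rank 1440. The nearest genes outside the set were Lgi2 (0.37), Cidea (0.41), Elovl6 (0.44), Me1 (0.45), Kcnk3 (0.46), Mkks (0.46), Lmod1 (0.48) and Mtus2 (0.48). Cidea coats lipid droplets in brown fat, Elovl6 and Me1 serve fatty acid synthesis, and Lmod1 belongs to smooth muscle. Lgi2 had 21.5 CPM in the Mr1-/- PD fluid sample, 12.2 and 27.6 CPM in Mr1-/- PBS, 19.7, 47.0 and 43.2 CPM in Mr1+/+ PD fluid, and 10.9 and 11.2 CPM in Mr1+/+ PBS. As in Hspa1b, the high samples were replicate 2 of Mr1-/- PBS and replicates 2 and 3 of Mr1+/+ PD fluid, though Lgi2 was less high in the first of these.

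**Figure D4:**
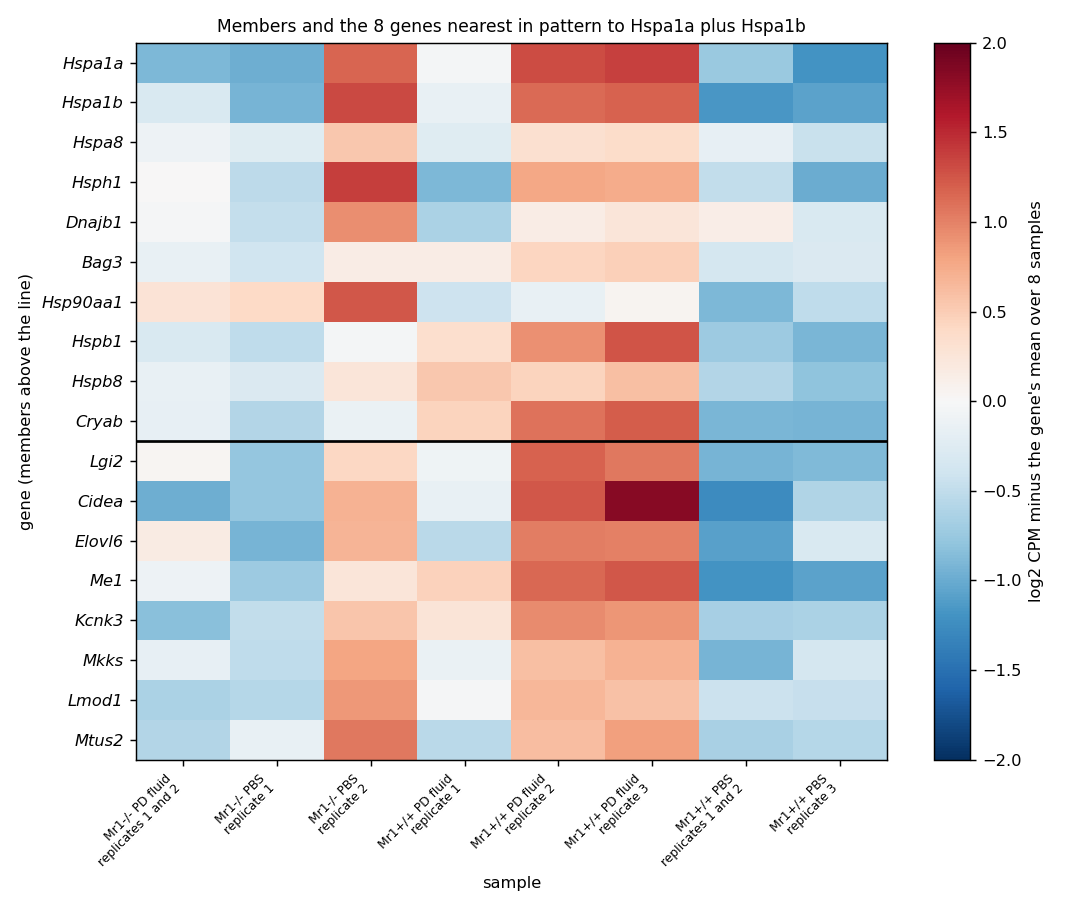
Log2 CPM minus the gene's mean over 8 samples (colour, from -2 to 2) for the 10 genes, above the line, and the 8 genes nearest in pattern to Hspa1a plus Hspa1b. Mr1-/- PBS replicate 2 and Mr1+/+ PD fluid replicates 2 and 3 are red for Hspa1a, Hspa1b and Hsph1, and Hsp90aa1 is red in all 3 Mr1-/- columns.

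Lists of other protein quality control genes held from none to 3 genes that rose with PD fluid in Mr1+/+ mice, where 8.49% of all tested genes were called higher. Counts such as 1 of 9, 1 of 14 and 1 of 19 lie near that share, and no difference between a list and the 10 members was tested. Of 9 other HSP70 and HSP110 genes 1 rose, Hspa12b, which is known from blood vessel lining (42.4, 70.6 and 63.4 CPM under PD fluid, against 21.6 and 25.2 CPM under PBS; log2 fold change 1.33, SE 0.24, edgeR adjusted p = 0.0169). Of 7 other small heat shock proteins 3 were measured well enough to test and none was called, with a median log2 fold change of 0.58. None of 12 other J-domain genes was called (median 0.19) and none of 10 chaperonin genes (median 0.20). No gene of these 4 lists was called lower, and over all tested genes the median was -0.06.

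Of 9 genes for HSP70 exchange and adaptor proteins 3 rose. St13, which joins HSP70 to HSP90, had 259, 279 and 309 CPM in Mr1+/+ PD fluid samples, against 144 and 148 CPM in Mr1+/+ PBS (log2 fold change 0.95, SE 0.15, edgeR adjusted p = 0.0124). Bag1 (0.82, SE 0.22, adjusted p = 0.0443) and Bag4 (0.69, SE 0.19, adjusted p = 0.0427) share the BAG domain of Bag3. Every Mr1+/+ PD fluid sample of these 3 genes lay above both Mr1+/+ PBS samples.

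Of 14 genes of the HSP90 system 1 rose, Unc45b, a partner of HSP90 in folding myosin. It had 22.4, 21.7 and 22.9 CPM in Mr1+/+ PD fluid samples, against 8.77 and 10.04 CPM in Mr1+/+ PBS (log2 fold change 1.25, SE 0.18, edgeR adjusted p = 0.0124). Of 7 heat shock factors and other inducible genes 2 rose. Serpinh1, the collagen chaperone of the endoplasmic reticulum (ER), had 217, 421 and 428 CPM, against 121 and 113 CPM (1.60, SE 0.29, adjusted p = 0.0178), and Hsbp1, which binds heat shock factor, had a log2 fold change of 0.69 (SE 0.16, adjusted p = 0.0273). Serpinh1 split Mr1+/+ PD fluid replicate 1 from replicates 2 and 3 as Hspa1b did, and Unc45b did not.

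Against the same 8.49% of all tested genes, of 8 partners of Bag3 and Hspb8 in chaperone-assisted autophagy 2 rose, Map1lc3b (0.77, SE 0.16, edgeR adjusted p = 0.0219) and Wipi1 (0.55, SE 0.14, adjusted p = 0.0400), both of which serve the growing autophagosome membrane. Of 19 ER chaperones and genes of the unfolded protein response 1 rose, Dnajb9 (0.69, SE 0.15, adjusted p = 0.0250), which is no larger a share than among all tested genes. Of 18 tested immediate early genes, of 19 listed, Ier3 rose (1.01, SE 0.26, adjusted p = 0.0376) and Btg2 fell (-0.76, SE 0.15, adjusted p = 0.0182), and the median was -0.29. In the other comparisons, no gene of these 10 lists was called.

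**Figure D5:**
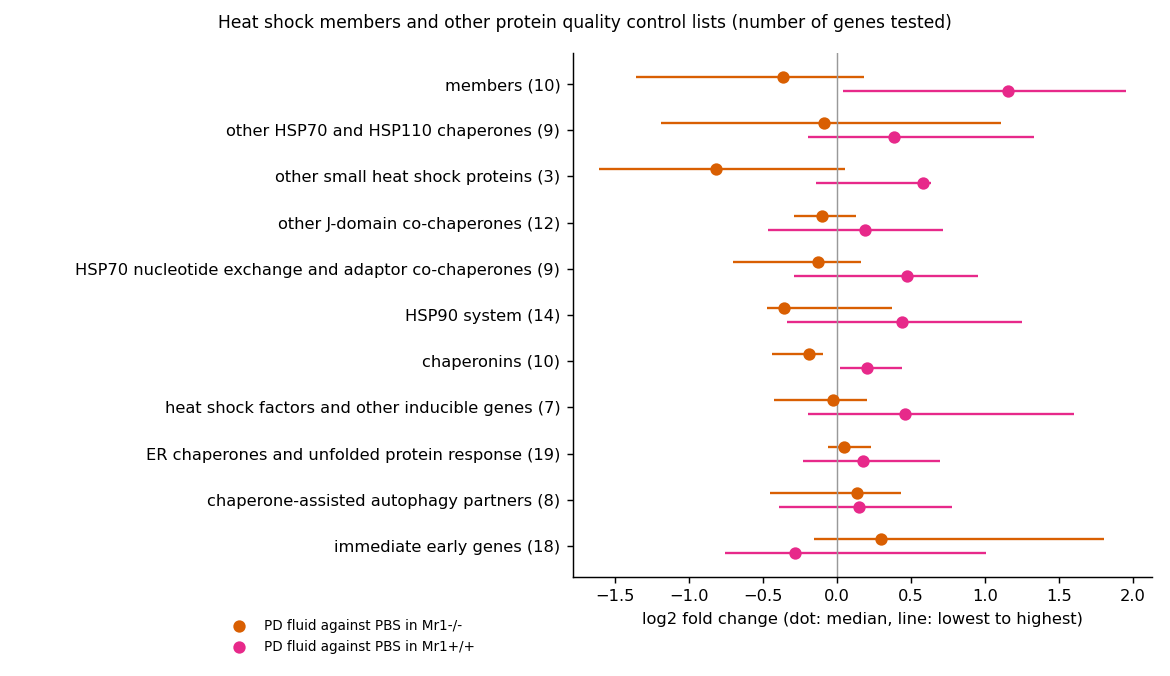
Log2 fold change of PD fluid against PBS in each genotype for the 10 genes and 10 related lists; dots are list medians, lines run from the lowest to the highest gene, and the number of genes tested stands beside each name. The 10 genes have a median of -0.36 in Mr1-/- mice, and in Mr1+/+ mice the highest median of all the sets plotted, 1.16.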

How the data were processed

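Poly-A RNA of mouse peritoneum was measured in 10 libraries, in the 4 groups of the labels. The deposited values are raw whole-number counts for each gene symbol, with mm10 as the build per the submitters' processing notes. Which aligner, counter and gene models made them is not given in the sources used here. No strand-marking step is named in the labels' protocols, so overlapping genes on opposite strands may share reads. Counts summed to between 14145635 and 16335799 per library. Precision follows from these counts and from the few samples per group, and nothing in the labels ties a library to an animal. The p-values thus speak of the spread among these samples alone, which may be technical.

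Rows sharing a symbol were summed (22 of 21899 rows), which left 21877 symbols, and 97.0% of them matched GENCODE M21, the source of coordinates and exon lengths. Pairs of libraries of 1 group with a chi-square per gene under 3, over genes with at least 10 counts in the pair, were summed and counted as 1 sample: 2 pairs met this, which left 8 samples. All 15385 genes kept by filterByExpr were fitted with edgeR 4.0.16 in R 4.3.3 (TMM scaling, 4 group means, robust quasi-likelihood F tests, 4 residual degrees of freedom before shrinkage), and a gene was called where its adjusted p (Benjamini-Hochberg) was under 0.05. The standard error (SE) is the log2 fold change divided by the root of its F statistic. Levels are CPM, counts scaled to library size, on TMM-scaled library sizes, and log2 CPM used a prior count of 2. The spread of the lone Mr1-/- PD fluid sample is taken from the other groups.

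The alternatives were DESeq2 1.42.0, its size factors within edgeR, no filter on low counts, 10 separate libraries, only the groups compared, the replicate number as a block, skeletal muscle or adipocyte marker levels as a covariate, Hspa1a and Hspa1b summed, and each library left out. The contrast averaged over both treatments was added after the levels of Hsp90aa1 had been seen. The fit was tested on simulated data. The 10 genes and all lists were chosen with earlier results of these data known. Beyond the 10 genes, the text names the called genes of each list, up to 3 per list and comparison by smallest p, and the 8 genes nearest in pattern to Hspa1a plus Hspa1b.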

Additional observations from a re-analysis of the deposited data

How the results depend on the processing

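In Mr1+/+ mice, PD fluid against PBS called 4 members in edgeR (14.9% of tested genes, either direction) and 6 by DESeq2 (25%), which added Hspa1a and Hspa1b. It called 7 with 10 separate libraries (37.5% of tested genes), where the nearly alike pairs count as separate samples. With the skeletal muscle covariate it called 2 members and 566 of 15385 genes. With the adipocyte covariate, whose marker level differs between the same groups, it called 0 members and 67 of 15385 genes. Leaving out Mr1+/+ PD fluid replicate 1, 2 or 3 gave 4, 2 and 0 members. Tested genes called were then 2151 of 15397, 339 of 15374 and 0 of 15356. Leaving out Mr1+/+ PBS replicate 1 or 2 gave 4 and 3 members, against 2349 and 2202 of 15393 tested genes. The labels repeat replicate numbers across groups. Deviations of same-numbered libraries from their group means correlated at 0.127, -0.108 and 0.0984 in that comparison. Mr1+/+ PBS replicates 1 and 2 were nearly alike, so these values cannot show whether the numbers pair the samples. With the replicate block on 10 separate libraries, members called were 7 for PD fluid in Mr1+/+ mice, 0 for PD fluid in Mr1-/- mice, 0 for genotype under PBS, 3 for genotype under PD fluid, 5 for the interaction and 1 for the average of genotype. Of 14815 tested genes, the same block called 5537, 0, 3, 2428, 1915 and 325 in that order. Where edgeR called 0 members, DESeq2 called 1 under PBS, 2 under PD fluid, 3 for the interaction and 1 for the average. The shares of tested genes were 1.37%, 6.73%, 3.17% and 3.39%. With 10 separate libraries the calls were 1, 4, 4 and 1, against 0.337%, 22.9%, 10.1% and 11.2% of tested genes. The log2 difference in Mr1 ran from -3.61 to -3.46 as 1 sample that was not summed was left out. The summed samples, among them the lone Mr1-/- PD fluid sample, were kept in each time.

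Some signs turned. For Dnajb1, PD fluid against PBS in Mr1+/+ mice gave -0.028 with 10 separate libraries, -0.080 with the replicate block, and -0.16 to 0.27 as 1 library was left out. Its genotype difference under PD fluid gave -0.0033 by DESeq2, -0.0032 with its size factors, -0.30 and -1.30 with the skeletal muscle and adipocyte covariates, and -0.22 to 0.17 as 1 library was left out. The same omissions moved PD fluid against PBS in Mr1-/- mice between -2.06 and 0.080 for Hspa1a, -1.62 and 0.63 for Hspa1b, -0.65 and 0.14 for Hspa8, -0.26 and 0.21 for Hspb1, -0.40 and 0.14 for Hspb8, -0.024 and 0.41 for Cryab, -0.30 and 0.24 for Bag3, -0.95 and 0.45 for Dnajb1, and -1.37 and 0.53 for Hsph1. Genotype under PBS moved between -0.030 and 2.11 for Hspa1a, -0.079 and 0.46 for Bag3, and -0.40 and 0.9998 for Dnajb1, and the interaction between -0.99 and 0.41 for Dnajb1. The cause was not tested. With 1 Mr1-/- PD fluid sample, a call missed there does not show that the genotypes respond alike.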
